A study of Mus musculus with 21 samples.

Results

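Cumulus-oocyte complexes (COCs), in which cumulus granulosa cells surround an oocyte, were compared after 8 h of expansion in culture with an inhibitor of proprotein convertases (PCI, 10 µM) or with its solvent DMSO (CTL). The comparison rests on 6 of the 21 RNA-seq libraries of the study, 3 PCI and 3 CTL libraries that the labels call biological replicates, chosen by those labels alone. Every COC came from the ovary of a wild-type mouse, and strain and age are not stated in the labels. Both groups were kept in medium with 5% fetal bovine serum and epidermal growth factor (EGF) at 37 °C under 5% CO2, so the control COCs were expanding as well. The labels name the inhibitor by its class only. The other libraries, COCs before culture and both groups at 4 and 12 h, entered the statistical fit and are used below to place the 8 h values in time.

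Proprotein convertases, among them furin, cut precursor proteins at basic residues and so release mature growth factors, receptors and proteases. Members of the transforming growth factor beta (TGF-beta) family are made as such precursors, including GDF9 and BMP15, which the oocyte secretes to its cumulus cells. During expansion, EGF-like signals and these oocyte factors lead cumulus cells to build a matrix of hyaluronan and linking proteins, and cumulus cells later turn towards steroid synthesis. The study asks whether convertases regulate this matrix and the behaviour of cumulus cells. A COC library holds RNA of both cell types, and fewer cells of a type and less RNA per cell cannot be told apart in it.

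The 6 libraries held 21470072 to 34329782 counts. Levels are given in CPM, the count scaled to the size of its library, for replicates 1, 2 and 3 of each group, and differences as log2 fold changes, PCI over CTL, ± standard error (SE). A gene is said to have risen or fallen where its p-value, from edgeR's quasi-likelihood test and adjusted over all 18192 genes tested, lay under 0.05. At 8 h 667 genes passed (3.67% of those tested), 354 higher (1.95%) and 313 lower (1.72%) in PCI. Where the share called in a list is near that 3.67%, its count is no result about the list. Of the genes that rose, 257 changed at least 2-fold and 111 at least 4-fold, and of those that fell 228 and 83 did. The 3 PCI and the 3 CTL libraries did not overlap for 347 of the 354 and for all of the 313, against 23.2% of all genes tested. The calls were made on these same libraries, so this separation is a description and adds no support for them. Of 14854 protein-coding genes 343 rose and 297 fell (4.31%), and of 1420 long noncoding RNA genes 5 rose and 10 fell (1.06%). Without PCI replicate 1, PCI replicate 2, CTL replicate 1 or CTL replicate 3 the count was 252, 330, 256 or 414, and DESeq2 called 1084, which took in 666 of the 667. Without CTL replicate 3 the calls were 164 higher and 250 lower.

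**Figure D1:**
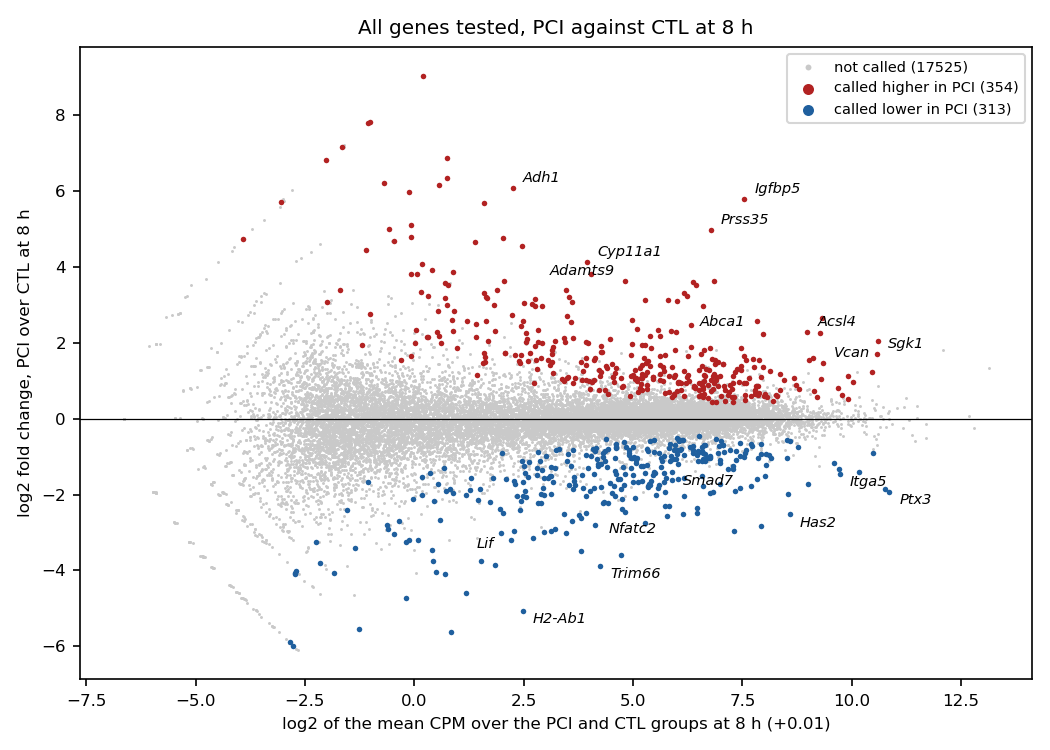
Log2 fold change of each gene, PCI over CTL at 8 h (vertical axis), against the log2 of its mean CPM over both groups (horizontal axis). Red points are the 354 genes called higher in PCI, blue points the 313 called lower and grey points the genes not called, and the calls of both directions spread from genes under 1 CPM to abundant ones such as Sgk1 and Ptx3.

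Genes that answer to bone morphogenetic protein (BMP) signals through SMAD1 and SMAD5 were lower with the inhibitor. Of 14 measured members of this list 5 fell and 0 rose, with a median log2 fold change of -0.79, against -0.02 over all genes tested. Smad7 (ENSMUSG00000025880), an inhibitory SMAD that dampens BMP and TGF-beta receptors, was at 30.6, 31.5 and 35.4 CPM in PCI and 88.2, 95.7 and 77 CPM in CTL. It fell by 1.42 ± 0.18 on the log2 scale (adjusted p = 0.000438). Id4 (ENSMUSG00000021379, mm39 chromosome 13, 48414704 to 48419502), an inhibitor of basic helix-loop-helix factors, was at 3.07, 2.42 and 3.77 CPM in PCI and 11.3, 14 and 11.9 CPM in CTL (-2.01 ± 0.33, adjusted p = 0.00192). For both genes every PCI library lay below every CTL library, with the PCI libraries close together. Smad6, the second inhibitory SMAD, had 8.68, 12.3 and 11.6 CPM in PCI and 23, 32.7 and 21.4 CPM in CTL (-1.24 ± 0.25). Id1, a relative of Id4, and Nog, whose product noggin captures BMPs, had log2 fold changes of -0.93 ± 0.21 and -1.71 ± 0.41. Smad6 lost its call without PCI replicate 1 (adjusted p = 0.0684). Id1 lost its call without PCI replicate 1, CTL replicate 1 or CTL replicate 2 (adjusted p = 0.0962, 0.0604 or 0.0789). Nog lost its call without PCI replicate 1, PCI replicate 3 or CTL replicate 2 (adjusted p = 0.139, 0.0771 or 0.106) and in a fit to the 6 libraries of 8 h alone (adjusted p = 0.0623). The list thus held 2 calls without PCI replicate 1 and 3 without CTL replicate 2.

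The promoters of Id4 and Smad6 are shown because both genes fell, as background to the list; each line gives 250 bases before to 50 after the gene's start from RefSeq on GRCm38.p6, written 5′ to 3′ on the gene's strand. The BMP-SMAD word GGCGCC, searched on both strands, is in capitals. It stands once in the Id4 window (chr13:48260866-48261165, plus strand), 148 bases before the start, and not in the Smad6 window (chr9:64022010-64022309, minus strand). Of 32841 mouse promoters of this length 11.9% hold the word. The SMAD box CAGAC, also searched on both strands, stood in neither window, while 49.6% of these promoters hold it. Windows of Smad7, Id1 and Nog, which fell too, are not shown.
Id4: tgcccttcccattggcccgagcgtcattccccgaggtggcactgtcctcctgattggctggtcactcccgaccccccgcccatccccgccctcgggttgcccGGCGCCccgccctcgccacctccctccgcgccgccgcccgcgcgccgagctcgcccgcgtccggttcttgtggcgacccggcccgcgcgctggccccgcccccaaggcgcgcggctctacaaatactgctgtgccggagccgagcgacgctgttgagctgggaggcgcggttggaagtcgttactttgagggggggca
Smad6: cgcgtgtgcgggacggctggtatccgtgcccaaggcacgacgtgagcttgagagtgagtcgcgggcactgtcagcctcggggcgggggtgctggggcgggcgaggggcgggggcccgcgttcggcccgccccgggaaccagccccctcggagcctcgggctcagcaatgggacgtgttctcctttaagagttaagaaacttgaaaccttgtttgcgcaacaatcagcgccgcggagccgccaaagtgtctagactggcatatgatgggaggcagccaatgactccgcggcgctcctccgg

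The arm that runs through SMAD2 and SMAD3, the receptors and the ligands of the family moved less evenly. Of 15 SMAD2/3 target and feedback genes 1 rose and 2 fell, with a median of -0.05. Smad7 was one of those 2, since both lists hold it, and Ldlrad4, which restrains TGF-beta receptor signals, was the other (-1.16 ± 0.29). Tgif1, a corepressor of SMADs, rose to 309, 279 and 159 CPM in PCI, against 93.1, 127 and 88.4 CPM in CTL (1.28 ± 0.26). Without PCI replicate 1 or CTL replicate 1 this list held 1 call. Of 35 ligands, receptors and antagonists of the TGF-beta family 3 rose and 1 fell, with a median of 0.02, and 1 call was left without PCI replicate 1 and 2 without CTL replicate 1. The oocyte ligands Gdf9, at 1154, 1509 and 1586 CPM in PCI and 1312, 1108 and 1754 CPM in CTL (0.03 ± 0.43, adjusted p = 0.996), and Bmp15, at 1187, 1177 and 1410 CPM in PCI and 1130, 1012 and 1583 CPM in CTL (0.02 ± 0.45, adjusted p = 0.997), overlapped between the groups and had no direction that held in every setting. Tgfbr1, the type I TGF-beta receptor, which also serves GDF9, was at 984, 847 and 499 CPM in PCI and 185, 369 and 253 CPM in CTL (1.53 ± 0.29, adjusted p = 0.00473). PCI replicate 3 was the lowest PCI library and still lay above the highest CTL library. The ligand Bmp2 rose by 3.18 on the log2 scale (adjusted p = 0.0112), the largest rise of the family list. Bmp2 lost its call without PCI replicate 1, CTL replicate 1 or CTL replicate 3. Fstl3, an antagonist of activin, fell by 1.85 ± 0.39 at low levels, 0.606, 1.41 and 1.63 CPM in PCI and 4.24, 4.45 and 4.45 CPM in CTL. The convertase genes themselves did not pass: of 8 measured 0 were called by edgeR and 0 by DESeq2, with 1 at an unadjusted p under 0.05. Furin was at 295, 322 and 392 CPM in PCI and 478, 406 and 434 CPM in CTL (-0.39 ± 0.19, adjusted p = 0.388), and every PCI library lay below every CTL library. Pcsk5, a convertase of secreted growth factors, was at 665, 633 and 662 CPM in PCI and 322, 384 and 444 CPM in CTL (0.77 ± 0.31, adjusted p = 0.235), without overlap, and a fit to the 6 libraries of 8 h alone called it (adjusted p = 0.0167). Pcsk6 was at 85.4, 89.3 and 87.5 CPM in PCI and 57.5, 85.1 and 79.1 CPM in CTL (0.24 ± 0.23, adjusted p = 0.752). Amh, anti-Müllerian hormone, itself a ligand of the family, was at 3.88, 17 and 20.6 CPM in PCI and 46.6, 24 and 74.1 CPM in CTL (-1.80 ± 1.15, adjusted p = 0.541), far apart within each group. Tgif1 lost its call without PCI replicate 1 or CTL replicate 1 (adjusted p = 0.0538 or 0.0531). Ldlrad4 lost its call without PCI replicate 1, PCI replicate 2, CTL replicate 1 or CTL replicate 2 (adjusted p = 0.155, 0.152, 0.098 or 0.076). Fstl3 lost its call without PCI replicate 1 (adjusted p = 0.0687).

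**Figure D2:**
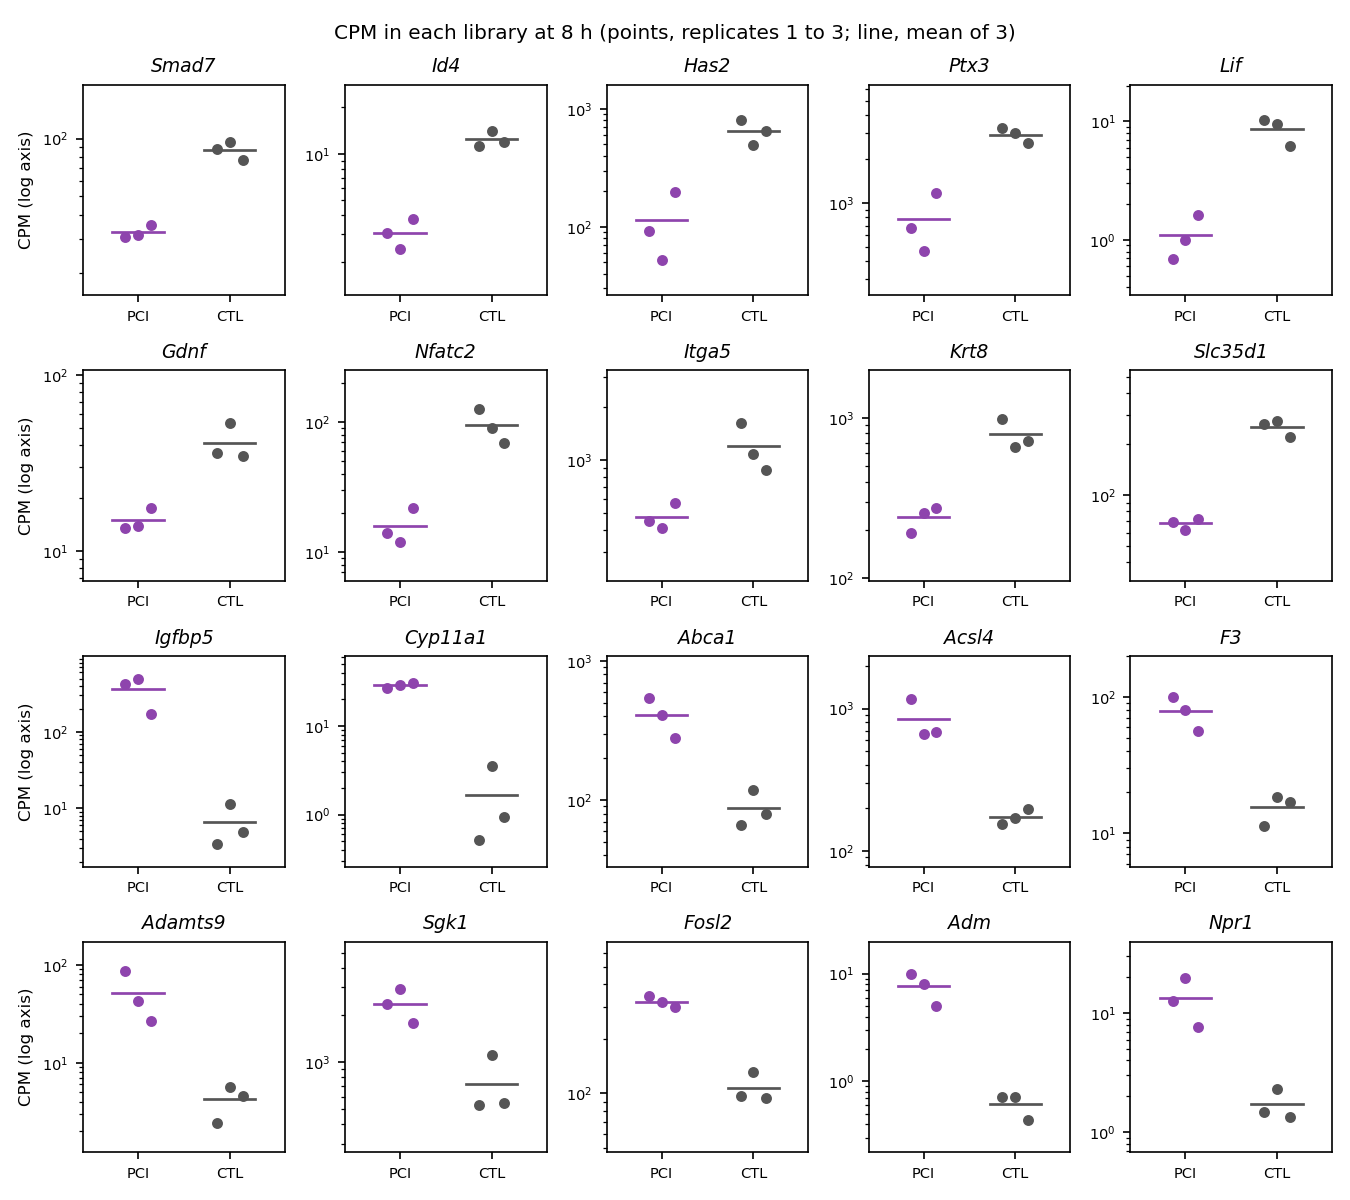
CPM on a log axis in each library at 8 h for 20 genes of the text, with the 3 PCI libraries at the left and the 3 CTL libraries at the right of each panel. Points are replicates 1 to 3 from left to right and lines are means of 3; the groups do not overlap in any panel, and PCI replicate 3 is the PCI library nearest to CTL for Has2, Ptx3, Igfbp5 and Abca1.

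The hyaluronan matrix did not move as a block. Of 18 genes for its synthesis, cross-linking and breakdown 3 rose and 2 fell, with a median of 0.15. Has2, the hyaluronan synthase of cumulus cells, was at 91.3, 52.7 and 196 CPM in PCI and 804, 494 and 655 CPM in CTL, and Ptx3, the pentraxin that cross-links the chains, at 678, 466 and 1166 CPM in PCI and 3243, 3013 and 2561 CPM in CTL. Both fell in every PCI library, by 2.52 ± 0.36 and 1.93 ± 0.33 on the log2 scale, and PCI replicate 3 kept the most of each. Vcan, the hyaluronan-binding proteoglycan versican, was higher, at 1186, 927 and 745 CPM in PCI and 312, 425 and 306 CPM in CTL (1.45 ± 0.30). Its link protein gene Hapln1 was also higher, at 6.22, 2.02 and 0.744 CPM in PCI and 0.278, 0.32 and 0.146 CPM in CTL. Cemip, which takes part in the breakdown of hyaluronan, had 78 counts over the 3 PCI libraries and 3 over the 3 CTL libraries, a ratio of 25.9 with a 95% counting interval of 8.56 to 129. Tnfaip6, which transfers protein chains to hyaluronan, was at 591, 486 and 529 CPM in PCI and 719, 672 and 481 CPM in CTL (-0.22 ± 0.24, adjusted p = 0.802). Its groups overlapped. Without PCI replicate 1 or CTL replicate 1 the list held 3 calls. Vcan lost its call without PCI replicate 1 or CTL replicate 1 (adjusted p = 0.0591 or 0.0617). Hapln1 lost its call without PCI replicate 1, CTL replicate 1 or CTL replicate 3 (adjusted p = 0.114, 0.0742 or 0.0722). Has2 lost its call in a fit to the 6 libraries of 8 h alone (adjusted p = 0.0563).

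Slc35d1 (ENSMUSG00000028521, mm39 chromosome 4, 103027846 to 103072361), which carries nucleotide sugars into the endoplasmic reticulum for chondroitin synthesis, had the smallest p-value of all genes tested. It was at 69.1, 62.1 and 72.7 CPM in PCI and 264, 274 and 222 CPM in CTL (-1.90 ± 0.19, adjusted p = 6.43e-05). Slc26a2, a sulfate transporter, was at 57.6, 54.6 and 56.6 CPM in PCI and 119, 133 and 115 CPM in CTL (-1.12 ± 0.13), and Chst8, a sulfotransferase for N-acetylgalactosamine, at 9.37, 12.8 and 15.4 CPM in PCI and 49, 53.4 and 58.6 CPM in CTL (-2.10 ± 0.25). All 3 kept their calls in each of the 13 settings run. Of 29 heparan sulfate genes 1 rose and 1 fell (6.9% called, against 3.67% of all genes tested). Hs3st1 rose to 366, 321 and 251 CPM in PCI, against 131, 132 and 104 CPM in CTL, and Hs3st3a1 fell to 1.53, 1.44 and 1.02 CPM in PCI, against 19.3, 8.75 and 7.37 CPM in CTL, both being 3-O-sulfotransferases.

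In the lists of fibre, basement membrane and protease genes 6.25%, 4.17% and 3.03% of members were called, near the 3.67% over all genes tested. Of 32 matricellular and interstitial matrix genes 2 fell, Lox and Ccn4, although the median of the list was 0.58. Without PCI replicate 1, PCI replicate 2 or CTL replicate 1 this list held 0 calls, and without PCI replicate 3 it held 4. Lox, which cross-links collagen and elastin, was at 792, 478 and 971 CPM in PCI and 3049, 3303 and 1818 CPM in CTL (-1.87 ± 0.40). Lox lost its call without PCI replicate 1, PCI replicate 2 or CTL replicate 1 (adjusted p = 0.057, 0.0764 or 0.0535) and with no filter on low counts (adjusted p = 0.0529). Ccn4 lost its call without PCI replicate 1, PCI replicate 2 or CTL replicate 1 (adjusted p = 0.116, 0.101 or 0.113). Of 24 basement membrane genes 1 rose, Hspg2, the proteoglycan perlecan (1.32 ± 0.27), while the fit with the replicate block held 2 calls. Without PCI replicate 3 or CTL replicate 2 the list held 2 as well. Hspg2 lost its call without PCI replicate 1 or CTL replicate 3 (adjusted p = 0.0527 or 0.0504). Of 33 matrix metalloproteases, ADAMTS proteases and inhibitors 1 rose: Adamts9, which cuts versican, was at 86.3, 42.3 and 26.4 CPM in PCI and 2.42, 5.65 and 4.56 CPM in CTL (3.61 ± 0.62, adjusted p = 0.00248). With the replicate block 2 genes of that list were called, 1 higher and 1 lower. Prss35, a secreted serine protease-like protein of the ovary, was at 336, 245 and 54.7 CPM in PCI and 2.86, 13.1 and 4.3 CPM in CTL (4.97 ± 0.70). Prss46, another serine protease gene, was at 0.444, 0.115 and 0.883 CPM in PCI and 10.3, 3.91 and 5.94 CPM in CTL (-3.86 ± 0.59). Prss35 lost its call in a fit to the 6 libraries of 8 h alone (adjusted p = 0.0867).

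Plasminogen activation and coagulation genes split 2 and 2 among 18 measured. F3 (ENSMUSG00000028128, mm39 chromosome 3, 121517186 to 121528697), tissue factor, the cell-surface starter of coagulation, was at 100, 80 and 56 CPM in PCI and 11.4, 18.6 and 16.8 CPM in CTL (2.33 ± 0.30, adjusted p = 0.000438). Plau, urokinase, rose to 21.8, 16.6 and 13.7 CPM in PCI, against 2.22, 4.87 and 4.78 CPM in CTL (2.13 ± 0.33). Its receptor gene Plaur fell to 15.2, 8.54 and 30.8 CPM in PCI, against 92.2, 49.3 and 48.2 CPM in CTL (-1.80 ± 0.35), so enzyme and receptor changed in opposite directions. Procr, the endothelial protein C receptor gene, fell to 670, 435 and 788 CPM in PCI, against 2137, 1379 and 1524 CPM in CTL (-1.41 ± 0.33). Plaur lost its call in a fit to the 6 libraries of 8 h alone (adjusted p = 0.129). Procr lost its call without PCI replicate 1, PCI replicate 2 or CTL replicate 1 (adjusted p = 0.0815, 0.117 or 0.121) and with no filter on low counts (adjusted p = 0.0709).

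Adhesion and cytoskeleton genes changed one by one, and 5% of integrins were called, against 3.67% of all genes tested. Itga5 (ENSMUSG00000000555, mm39 chromosome 15, 103252713 to 103275190), the integrin chain that binds fibronectin, was the only one of 20 integrins called, while DESeq2 called 2 and the fit to the 6 libraries of 8 h alone 3. It was at 450, 410 and 567 CPM in PCI and 1629, 1081 and 882 CPM in CTL (-1.33 ± 0.20, adjusted p = 0.00112), without overlap. The keratin pair Krt8 and Krt18 fell together, Krt8 to 192, 255 and 272 CPM in PCI, against 989, 662 and 719 CPM in CTL (-1.72 ± 0.32), and Krt18 by 1.60 ± 0.30 on the log2 scale. Dab2, an endocytic adaptor, was at 427, 360 and 569 CPM in PCI and 1564, 1177 and 1008 CPM in CTL (-1.47 ± 0.24). Of 17 junction and transzonal projection genes 2 rose and 2 fell. F11r, a tight junction adhesion molecule, was at 398, 401 and 257 CPM in PCI and 91.1, 164 and 109 CPM in CTL (1.54 ± 0.26), without overlap. Cdh2, N-cadherin, rose (0.87 ± 0.22) and Myo10, a myosin of filopodia, fell (-0.93 ± 0.20). Cdh2 lost its call without PCI replicate 1, PCI replicate 2, CTL replicate 1 or CTL replicate 3 (adjusted p = 0.134, 0.122, 0.182 or 0.104). Myo10 lost its call without PCI replicate 1, PCI replicate 2 or CTL replicate 1 (adjusted p = 0.0715, 0.0814 or 0.0766). The list held 2 calls without PCI replicate 1, PCI replicate 2 or CTL replicate 1. Of 31 genes of the actin, SRF and YAP list 2 rose and 0 fell (6.45% called, against 3.67% of all genes tested). The risers were Cnn3 (1.11 ± 0.17), a calponin, and Vcl (1.29 ± 0.24), vinculin, an anchor of actin at adhesions. Without CTL replicate 2 this list held 5 calls. Of 7 caveolin and cavin genes Cav1 (1.11 ± 0.28) and Cav2 (1.08 ± 0.25), which shape membrane caveolae, rose. Cav1 lost its call without PCI replicate 1, PCI replicate 3, CTL replicate 1, CTL replicate 2 or CTL replicate 3 (adjusted p = 0.159, 0.117, 0.122, 0.103 or 0.0853) and in a fit to the 6 libraries of 8 h alone (adjusted p = 0.0517). Cav2 lost its call without PCI replicate 1 or CTL replicate 1 (adjusted p = 0.111 or 0.114).

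Genes of several secreted signals fell. Lif (ENSMUSG00000034394, mm39 chromosome 11, 4207557 to 4222514), leukemia inhibitory factor, a cytokine of cumulus expansion, was at 0.687, 1.01 and 1.63 CPM in PCI and 10.2, 9.46 and 6.2 CPM in CTL (-2.97 ± 0.47, adjusted p = 0.0014). Il23a, the p19 subunit of interleukin 23, was at 6.79, 6.9 and 16.4 CPM in PCI and 83.8, 32.2 and 84.4 CPM in CTL (-2.74 ± 0.40). These and Il1rap were the 3 that fell among 20 genes of the IL-6 and IL-1 families, and 0 rose, with a median of -0.36. Gdnf, a glial-derived factor, had 13.5, 13.8 and 17.6 CPM in PCI and 36, 53.3 and 34.5 CPM in CTL (-1.46 ± 0.23). Fgf2, fibroblast growth factor 2, had 2.02, 0.895 and 4.46 CPM in PCI and 25.3, 16.2 and 17.2 CPM in CTL (-3.01 ± 0.46). Ihh, Indian hedgehog, had 2.5, 4.13 and 2.97 CPM in PCI and 13.2, 14.9 and 26.9 CPM in CTL (-2.51 ± 0.42) and was the only call among 13 Hedgehog genes, where the replicate block gave 2. None of these genes overlapped between the groups, as was so for 23.2% of all genes tested. For Lif and Fgf2 this was a condition of being chosen. All were called from these same libraries, so lack of overlap adds no support for any of them. Il1rap lost its call without PCI replicate 2 or CTL replicate 1 (adjusted p = 0.0643 or 0.0824).

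Other genes of ligands and receptors rose. Igfbp5 (ENSMUSG00000026185, mm39 chromosome 1, 72897091 to 72914043), which encodes a protein that binds the IGF ligands, was at 427, 493 and 169 CPM in PCI and 3.45, 11.3 and 4.92 CPM in CTL (5.79 ± 0.76, adjusted p = 0.000438). With Insr (1.18 ± 0.19), the insulin receptor, and Pappa (1.50 ± 0.33), a protease of such binding proteins, it made 3 rises and 0 falls among 18 genes of the insulin-like growth factor (IGF) system. Adm (ENSMUSG00000030790, mm39 chromosome 7, 110226868 to 110229027), the vasodilator peptide adrenomedullin, was at 9.9, 8.05 and 5.02 CPM in PCI and 0.714, 0.711 and 0.438 CPM in CTL (3.62 ± 0.50). Its receptor part Ramp2 rose as well, to 10.1, 14.5 and 4.09 CPM in PCI, against 2.18, 2.74 and 1.82 CPM in CTL, while Ramp1, which pairs with the same receptor, fell (-0.88 ± 0.22). Npr1, a receptor for natriuretic peptide A, rose to 12.7, 19.9 and 7.67 CPM in PCI, against 1.47, 2.31 and 1.35 CPM in CTL (2.97 ± 0.37). Npr2, the receptor through which cumulus cells hold the oocyte in meiotic arrest, fell to 116, 123 and 133 CPM in PCI, against 250, 224 and 270 CPM in CTL. Of 17 genes of the platelet-derived and vascular growth factors 1 rose and 2 fell. Pdgfd, a ligand, was at 5.65, 4.96 and 2.84 CPM in PCI and 0.595, 0.889 and 0.912 CPM in CTL (2.48 ± 0.41), and Cspg4, a membrane proteoglycan, at 5.29, 2.63 and 18.5 CPM in PCI and 62.1, 49.9 and 31.4 CPM in CTL (-2.45 ± 0.57). Pappa lost its call without PCI replicate 2, CTL replicate 1 or CTL replicate 2 (adjusted p = 0.0532, 0.0888 or 0.0548). Ramp2 lost its call without PCI replicate 2 or CTL replicate 1 (adjusted p = 0.0628 or 0.0533). Ramp1 lost its call without PCI replicate 1, PCI replicate 2, PCI replicate 3, CTL replicate 1 or CTL replicate 2 (adjusted p = 0.203, 0.0654, 0.058, 0.142 or 0.101). Npr2 lost its call without PCI replicate 1, PCI replicate 2, CTL replicate 1 or CTL replicate 3 (adjusted p = 0.134, 0.0988, 0.0944 or 0.0961). Cspg4 lost its call without PCI replicate 1, PCI replicate 2 or CTL replicate 1 (adjusted p = 0.129, 0.0852 or 0.0915), with no filter on low counts (adjusted p = 0.0827) and in a fit to the 6 libraries of 8 h alone (adjusted p = 0.176). Without PCI replicate 2 or CTL replicate 1 the adrenomedullin list of 6 genes held 1 call in place of 3, and so did the platelet-derived and vascular list.

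The EGF receptor pathway had 2 rises and 0 falls among 18 genes, with a median of 0.40. Both encode inhibitors of the receptor: Lrig1 was at 163, 182 and 126 CPM in PCI and 64.7, 65 and 86.5 CPM in CTL (1.12 ± 0.19), and Errfi1 at 547, 330 and 522 CPM in PCI and 211, 238 and 241 CPM in CTL (1.02 ± 0.27). The ligand genes Areg, at 26.1, 15.5 and 33 CPM in PCI and 11.9, 14.8 and 11.7 CPM in CTL (0.95 ± 0.44, adjusted p = 0.318), and Ereg, at 179, 66.4 and 243 CPM in PCI and 103, 89.1 and 62.3 CPM in CTL (0.94 ± 0.54, adjusted p = 0.478), did not pass, although the groups of Areg did not overlap. Without PCI replicate 1, PCI replicate 3 or any 1 CTL library the list held 1 call, and the fit to the 6 libraries of 8 h alone held 5. WNT genes gave 4 rises and 1 fall among 42, with a median of 0.10. Sfrp2, a secreted WNT antagonist, was at 130, 190 and 86 CPM in PCI and 7.46, 24.9 and 11.4 CPM in CTL (3.22 ± 0.80), and the ligand Wnt11 at 94.8, 61.8 and 110 CPM in PCI and 298, 206 and 163 CPM in CTL (-1.33 ± 0.27). The receptor gene Fzd1 also rose (1.65 ± 0.35). The list kept 2 calls when PCI replicate 1 was left out, 1 when either PCI replicate 2 or CTL replicate 3 was, and 0 when CTL replicate 1 was. Sfrp2 lost its call without PCI replicate 1, PCI replicate 2, CTL replicate 1 or CTL replicate 3 (adjusted p = 0.0746, 0.0952, 0.16 or 0.121) and with no filter on low counts (adjusted p = 0.132). Wnt11 lost its call without PCI replicate 2 or CTL replicate 1 (adjusted p = 0.0646 or 0.0763). Fzd1 lost its call without PCI replicate 1, PCI replicate 2, CTL replicate 1 or CTL replicate 3 (adjusted p = 0.0514, 0.0699, 0.0783 or 0.0528), with no filter on low counts (adjusted p = 0.0666) and in a fit to the 6 libraries of 8 h alone (adjusted p = 0.0829). Errfi1 lost its call without PCI replicate 1, PCI replicate 3, CTL replicate 1, CTL replicate 2 or CTL replicate 3 (adjusted p = 0.195, 0.113, 0.181, 0.0891 or 0.104) and when scaled by library size alone (adjusted p = 0.0531).

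Prostaglandin genes had 1 call among 18 (5.56%, near the 3.67% over all genes tested). Ptges, the synthase that finishes prostaglandin E2, was at 79.2, 81 and 123 CPM in PCI and 355, 334 and 276 CPM in CTL (-1.77 ± 0.26, adjusted p = 0.000753). Ptgs2, the inducible synthase upstream of it, was at 1131, 771 and 1142 CPM in PCI and 1198, 1004 and 898 CPM in CTL (-0.03 ± 0.26, adjusted p = 0.992), and its groups overlapped.

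Genes of steroid synthesis and conversion rose, 6 of 28 measured, and 0 fell; the median was 0.59. A fit to the 6 libraries of 8 h alone called 3. Cyp11a1 (ENSMUSG00000032323, mm39 chromosome 9, 57913694 to 57934306), which cleaves the side chain and so makes pregnenolone from cholesterol, was at 27, 29.2 and 30.8 CPM in PCI and 0.516, 3.49 and 0.948 CPM in CTL (4.12 ± 0.81, adjusted p = 0.00593). The PCI libraries were nearly equal, and all of them lay above the highest CTL library. Its electron carrier Fdx1 was at 487, 444 and 423 CPM in PCI and 163, 242 and 198 CPM in CTL (1.16 ± 0.24). Nr5a2, a nuclear receptor that drives steroid genes in granulosa cells, was at 37, 32 and 31.1 CPM in PCI and 11.5, 14.8 and 10.4 CPM in CTL (1.45 ± 0.24). The aldo-keto reductases Akr1cl (2.65 ± 0.46), Akr1c14 (3.63 ± 0.65) and Akr1c18 (3.12 ± 0.79), which convert steroids, rose too, Akr1cl to 1275, 1326 and 686 CPM in PCI, against 60, 259 and 204 CPM in CTL. These genes have close copies, so their counts may be shared between copies. Hsd3b1, the dehydrogenase that makes progesterone, was at 7794, 9154 and 3454 CPM in PCI and 1033, 3237 and 1531 CPM in CTL. Its groups did not overlap, but it did not pass with edgeR (1.81 ± 0.60, adjusted p = 0.12) and did with DESeq2 (adjusted p = 0.0236). Fdx1 lost its call without CTL replicate 1 (adjusted p = 0.0647). Akr1cl lost its call in a fit to the 6 libraries of 8 h alone (adjusted p = 0.0898). Akr1c14 lost its call in a fit to the 6 libraries of 8 h alone (adjusted p = 0.169). Akr1c18 lost its call without PCI replicate 1, PCI replicate 2, CTL replicate 1 or CTL replicate 3 (adjusted p = 0.0626, 0.185, 0.161 or 0.147), with no filter on low counts (adjusted p = 0.145) and in a fit to the 6 libraries of 8 h alone (adjusted p = 0.238).

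RefSeq gives 2 promoter windows for Cyp11a1 on GRCm38.p6. The first is shown, as a start of the gene at the head of that pathway (chr9:57997774-57998073, plus strand, 250 bases before to 50 after the start). The core word of a cAMP response element, TGACG on either strand, is in capitals; it stands as its reverse complement 50 bases before the start, and 20.8% of the 32841 promoters hold it. The NR5A word AAGGTCA, which 4.72% hold, was not found in either window. The second window (chr9:58014702-58015001) holds 0 of the cAMP word and 3 of the SMAD box CAGAC, which stands once in the first and which 49.6% of promoters hold. The windows of Nr5a2, Akr1cl, Akr1c14, Fdx1 and Akr1c18, the other called steroid genes, held neither the cAMP word nor the NR5A word.
Cyp11a1: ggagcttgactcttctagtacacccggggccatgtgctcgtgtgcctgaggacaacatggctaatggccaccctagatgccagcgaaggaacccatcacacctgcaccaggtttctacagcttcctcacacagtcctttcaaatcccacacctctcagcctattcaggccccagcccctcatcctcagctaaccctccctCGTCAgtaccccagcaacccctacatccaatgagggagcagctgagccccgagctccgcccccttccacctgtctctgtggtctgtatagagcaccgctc

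Acsl4 (ENSMUSG00000031278, mm39 chromosome X, 141100989 to 141173531), which activates arachidonic acid, was at 1173, 661 and 687 CPM in PCI and 155, 171 and 197 CPM in CTL (2.27 ± 0.28, adjusted p = 0.000401). Abca1, which exports cholesterol, was at 543, 411 and 279 CPM in PCI and 66.4, 118 and 78.8 CPM in CTL (2.22 ± 0.38) and was the only call among 26 genes of cholesterol synthesis and uptake (3.85%), where 2 were called with the replicate block or without PCI replicate 3, and 4 with DESeq2. Sgms2, a sphingomyelin synthase, was at 85.4, 90.1 and 65.9 CPM in PCI and 21.1, 28.5 and 26.1 CPM in CTL (1.67 ± 0.22). Idh1, a dehydrogenase that yields NADPH in the cytosol, and Far1, which reduces fatty acids to alcohols, were, among the genes called, 2 of the 6 with the largest gain in mean CPM. Idh1 was at 2983, 2489 and 1966 CPM in PCI and 350, 854 and 592 CPM in CTL, and Far1 at 2543, 1485 and 1879 CPM in PCI and 780, 974 and 762 CPM in CTL. Idh1 lost its call without CTL replicate 1 (adjusted p = 0.0532). Far1 lost its call without PCI replicate 1 or CTL replicate 1 (adjusted p = 0.0634 or 0.0535). Lgmn, a lysosomal protease, and Grn, progranulin, rose among 37 lysosomal genes (1.23 ± 0.22 and 0.65 ± 0.14), and 0 fell. The share called, 5.41%, is near the 3.67% over all genes tested. Grn lost its call without PCI replicate 2, CTL replicate 1 or CTL replicate 3 (adjusted p = 0.0697, 0.0669 or 0.0515). The list held 1 call without PCI replicate 2, CTL replicate 1 or CTL replicate 3 and 4 without PCI replicate 3.

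Retinoid genes changed in both directions, 4 up and 2 down of 21. Dhrs3, which turns retinal back to retinol, rose to 33.3, 17.5 and 28.5 CPM in PCI, against 9.12, 8.46 and 8.61 CPM in CTL (1.60 ± 0.31). Aldh1a1, an enzyme of retinoic acid synthesis, rose to 10.2, 18 and 5.76 CPM in PCI, against 2.97, 2.92 and 2.52 CPM in CTL (2.02 ± 0.36). The alcohol dehydrogenase Adh1 was at 16, 11.2 and 0.93 CPM in PCI and 0.119, 0.285 and 0 CPM in CTL, with 803 and 11 counts over the 3 libraries of each group. Aldh1a3, another enzyme that makes retinoic acid, fell to 467, 305 and 656 CPM in PCI, against 1404, 989 and 806 CPM in CTL (-1.16 ± 0.30), the opposite of Aldh1a1. Adh7, a relative of Adh1, rose (12.4, 9.03 and 2.23 CPM in PCI and 0.436, 0.285 and 0.146 CPM in CTL), and Stra6, a retinol transporter, fell (0.0808, 0.606 and 0.465 CPM in PCI and 2.78, 3.2 and 10.2 CPM in CTL). Adh7 lost its call without PCI replicate 1, CTL replicate 1 or CTL replicate 3 (adjusted p = 0.0532, 0.0524 or 0.0609) and with no filter on low counts (adjusted p = 0.0532). Stra6 lost its call without PCI replicate 1 or CTL replicate 3 (adjusted p = 0.0819 or 0.0662) and with no filter on low counts (adjusted p = 0.0569). Adh1 lost its call in a fit to the 6 libraries of 8 h alone (adjusted p = 0.0669). Aldh1a3 lost its call without PCI replicate 1, PCI replicate 2, CTL replicate 1 or CTL replicate 2 (adjusted p = 0.142, 0.183, 0.223 or 0.0576), with no filter on low counts (adjusted p = 0.0658) and in a fit to the 6 libraries of 8 h alone (adjusted p = 0.0853). Without PCI replicate 1 the list held 3 calls in all.

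**Figure D3:**
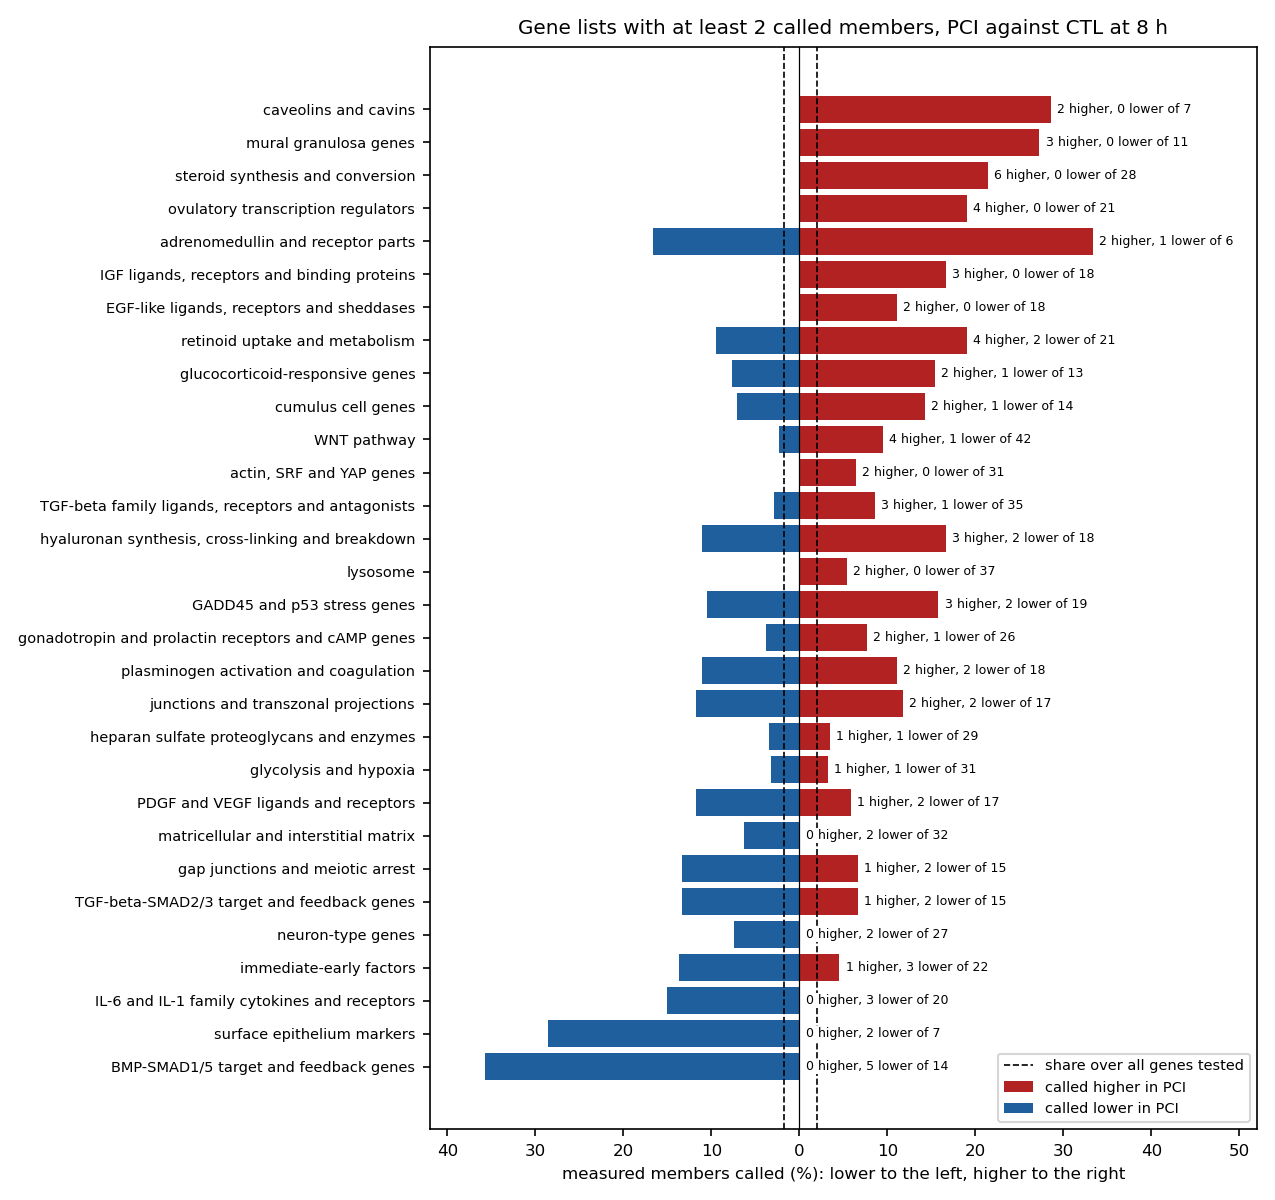
Share of the measured members of each gene list called at 8 h, in percent, higher in PCI to the right and lower to the left, for the lists with at least 2 called members. Dashed lines mark the shares over all genes tested (1.95% higher, 1.72% lower); the BMP list has 5 lower and 0 higher of 14, and the steroid list 6 higher and 0 lower of 28.

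Transcription factor genes changed in both directions. Nfatc2 (ENSMUSG00000027544, mm39 chromosome 2, 168318330 to 168443577), a factor activated by calcium and calcineurin, had the clearest fall, to 13.9, 12 and 22 CPM in PCI, against 125, 89.7 and 68.4 CPM in CTL (-2.56 ± 0.30, adjusted p = 0.000372). Mycn was at 6.95, 6.61 and 5.72 CPM in PCI and 11.1, 23.5 and 21.4 CPM in CTL (-1.54 ± 0.28), and was the only call among 12 genes of the MYC network. Among 22 immediate-early factors Klf10 (-1.03 ± 0.20), Ier5 (-1.07 ± 0.20) and Klf4 (-1.46 ± 0.29) fell while Egr1, an early growth response factor, rose to 265, 148 and 97.5 CPM in PCI, against 35.1, 74.5 and 31.7 CPM in CTL. Dusp5, a nuclear phosphatase that switches off ERK, fell to 32.8, 29.4 and 70.9 CPM in PCI, against 196, 157 and 168 CPM in CTL (-1.97 ± 0.29). It was the only call among 16 ERK feedback genes (6.25%, against 3.67% of all genes tested). Of 21 regulators of ovulation 4 rose and 0 fell. Fosl2, an AP-1 subunit, was at 344, 320 and 300 CPM in PCI and 96.3, 132 and 94.5 CPM in CTL (1.58 ± 0.25), and Rora, a nuclear receptor, at 71.4, 55.7 and 56.1 CPM in PCI and 12.1, 19.7 and 15.8 CPM in CTL (1.94 ± 0.33). The orphan receptor Nr4a1 rose (1.08 ± 0.27), and the ovulatory list held 2 calls without PCI replicate 1, CTL replicate 1 or CTL replicate 3. The immediate-early list held 2 calls without PCI replicate 1 or CTL replicate 1. Klf4 lost its call without PCI replicate 1, PCI replicate 2 or CTL replicate 1 (adjusted p = 0.0557, 0.0542 or 0.0631). Egr1 lost its call without PCI replicate 1, CTL replicate 1 or CTL replicate 3 (adjusted p = 0.164, 0.137 or 0.112), with no filter on low counts (adjusted p = 0.105) and in a fit to the 6 libraries of 8 h alone (adjusted p = 0.124). Nr4a1 lost its call without PCI replicate 1, PCI replicate 2, PCI replicate 3, CTL replicate 1 or CTL replicate 3 (adjusted p = 0.152, 0.0531, 0.0645, 0.141 or 0.156). Nrip1, the fourth of that list, rose (0.63 ± 0.17). Nrip1 lost its call without PCI replicate 1, PCI replicate 2, CTL replicate 1, CTL replicate 2 or CTL replicate 3 (adjusted p = 0.23, 0.15, 0.15, 0.0684 or 0.172), with no filter on low counts (adjusted p = 0.0916) and with the replicate block (adjusted p = 0.0505).

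Stress and hormone-response genes gave both signs. Sgk1, a kinase induced by steroid and gonadotropin signals, was at 2344, 2943 and 1765 CPM in PCI and 526, 1101 and 548 CPM in CTL (1.70 ± 0.31, adjusted p = 0.00392). Tsc22d3, which glucocorticoids induce, moved the other way, to 30.9, 28.1 and 36.1 CPM in PCI, against 59.8, 81.8 and 66.6 CPM in CTL (-1.13 ± 0.20). Ddit4l, an inhibitor of the growth kinase mTOR, was at 198, 212 and 50.4 CPM in PCI and 9.36, 15.9 and 12.8 CPM in CTL (3.60 ± 0.50). Btg2, an antiproliferative gene that p53 induces, was at 229, 116 and 113 CPM in PCI and 36.2, 58.9 and 35 CPM in CTL (1.81 ± 0.34). The GADD45 and p53 list as a whole had 3 rises and 2 falls among 19, with Sesn1 (1.39 ± 0.30), a sestrin, as the third rise and Gadd45b (-1.45 ± 0.30) and Ddit4 (-1.41 ± 0.32), the relative of Ddit4l, as the falls, and 3 calls in all without PCI replicate 1, PCI replicate 2 or CTL replicate 1. Sesn1 lost its call without CTL replicate 1 or CTL replicate 3 (adjusted p = 0.0793 or 0.0558). Gadd45b lost its call without PCI replicate 1 or PCI replicate 2 (adjusted p = 0.0609 or 0.0614). Ddit4 lost its call without PCI replicate 1, PCI replicate 2 or CTL replicate 1 (adjusted p = 0.12, 0.0914 or 0.0877).

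Further genes were named for large changes or small p-values, and Bcar3 for its p-value in the test of 8 h against 4 h. Ptpn13, a tyrosine phosphatase, was at 190, 182 and 138 CPM in PCI and 58.9, 71.4 and 57.8 CPM in CTL (1.44 ± 0.18). Bcar3, an adaptor of adhesion signals, fell to 12.6, 22.1 and 18.7 CPM in PCI, against 113, 62.5 and 87.8 CPM in CTL (-2.30 ± 0.37), and Slc39a2, a zinc transporter, to 1.41, 0.75 and 3.11 CPM in PCI, against 19.9, 12.1 and 9.41 CPM in CTL (-2.99 ± 0.56). Sox9, a transcription factor, was at 0.929, 1.04 and 4.69 CPM in PCI and 27.6, 9.42 and 12 CPM in CTL (-2.90 ± 0.59). Itm2a, a membrane protein gene, was at 1554, 1115 and 425 CPM in PCI and 177, 266 and 204 CPM in CTL (2.26 ± 0.45). All 5 lacked overlap, as did 23.2% of all genes tested. For Slc39a2 and Sox9 this was a condition of being chosen. All 5 were called from these same libraries, so lack of overlap adds no support for any of them. PCI replicate 3 was nearest to CTL for Ptpn13, Slc39a2, Sox9 and Itm2a. Sox9 lost its call without PCI replicate 1, PCI replicate 2 or CTL replicate 1 (adjusted p = 0.0578, 0.0542 or 0.061) and in a fit to the 6 libraries of 8 h alone (adjusted p = 0.101). Itm2a lost its call without PCI replicate 1 or CTL replicate 1 (adjusted p = 0.0527 or 0.0547) and in a fit to the 6 libraries of 8 h alone (adjusted p = 0.0619).

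Of 7 other named genes, 5 lost their call when single libraries were left out. Pkd1l2, a relative of the polycystins, was at 0.444, 4.91 and 6.74 CPM in PCI and 8.96, 66 and 70.9 CPM in CTL (-3.59 ± 0.90), with replicate 1 far below the others in both groups. Aqp3, a water and glycerol channel, was at 33.3, 3.09 and 72.4 CPM in PCI and 491, 168 and 178 CPM in CTL (-2.95 ± 0.80). Rasal1 (3.31 ± 0.55), a brake on RAS, Msc (4.55 ± 0.86), a helix-loop-helix factor, and Gask1b (3.38 ± 0.80) rose, and Alpk2 (-3.01 ± 0.68), an alpha-kinase, and Sidt2 (-0.91 ± 0.23), a lysosomal membrane protein, fell. Pkd1l2 lost its call without PCI replicate 1, PCI replicate 2, CTL replicate 2 or CTL replicate 3 (adjusted p = 0.128, 0.101, 0.0722 or 0.0948), with no filter on low counts (adjusted p = 0.13) and in a fit to the 6 libraries of 8 h alone (adjusted p = 0.22). Aqp3 lost its call without PCI replicate 1, PCI replicate 2, CTL replicate 1 or CTL replicate 3 (adjusted p = 0.192, 0.1, 0.248 or 0.0581), with no filter on low counts (adjusted p = 0.177) and in a fit to the 6 libraries of 8 h alone (adjusted p = 0.303). Msc lost its call in a fit to the 6 libraries of 8 h alone (adjusted p = 0.0775). Gask1b lost its call without PCI replicate 1, PCI replicate 2, CTL replicate 1 or CTL replicate 3 (adjusted p = 0.106, 0.0693, 0.0989 or 0.0673), with no filter on low counts (adjusted p = 0.0971) and in a fit to the 6 libraries of 8 h alone (adjusted p = 0.102). Alpk2 lost its call without PCI replicate 1, PCI replicate 2 or CTL replicate 1 (adjusted p = 0.109, 0.0942 or 0.0894). Sidt2 lost its call without PCI replicate 1, PCI replicate 2, CTL replicate 1 or CTL replicate 2 (adjusted p = 0.14, 0.158, 0.168 or 0.0756).

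The rest of the large changes held in most settings. Dync1i1, a dynein chain, was at 194, 244 and 41.7 CPM in PCI and 5.87, 19.2 and 17 CPM in CTL (3.51 ± 0.53), and Lrrn3, a leucine-rich repeat membrane protein, at 38.1, 37.6 and 16.5 CPM in PCI and 1.27, 2.92 and 2.33 CPM in CTL (3.82 ± 0.58). Ano1, a calcium-activated chloride channel, fell to 11.8, 14.6 and 31.4 CPM in PCI, against 98.8, 88.2 and 96.9 CPM in CTL (-2.30 ± 0.33). The tripartite motif genes Trim66 (-3.88 ± 0.75) and Trim9 (-3.19 ± 0.56) fell too. Rab27b, a GTPase of secretory vesicles, was at 6.18, 7.56 and 8.09 CPM in PCI and 41.6, 26.5 and 31.5 CPM in CTL (-2.19 ± 0.27). H2-Ab1, a class II histocompatibility chain, had the largest fall of any gene that averaged 5 CPM or more in PCI or in CTL, to 0.485, 0.0866 and 0.418 CPM in PCI, against 14.8, 2.99 and 14.5 CPM in CTL (-5.06 ± 0.93). None of these genes overlapped between the groups, as was so for 23.2% of all genes tested. Lack of overlap was a condition for choosing Dync1i1, Lrrn3, Trim66, Trim9 and H2-Ab1. All the genes of this paragraph were called from these same libraries, so it adds no support for any of them. PCI replicate 3 was the PCI library nearest to CTL for Dync1i1, Lrrn3 and Ano1. Dync1i1 lost its call in a fit to the 6 libraries of 8 h alone (adjusted p = 0.123).

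Of the remaining lists with calls, 26 genes of gonadotropin receptors and cAMP had 2 rises and 1 fall (11.5% called). The 15 genes of gap junctions and meiotic arrest had 1 and 2 (20%), and the 31 of glycolysis and hypoxia 1 and 1 (6.45%). Over all genes tested 3.67% were called. Prkar2b, a regulatory subunit of protein kinase A, was at 394, 250 and 211 CPM in PCI and 81, 138 and 75.6 CPM in CTL (1.54 ± 0.35). Pfkfb3, a regulator of glycolysis, fell to 16.6, 20.9 and 29.9 CPM in PCI, against 42.5, 42.6 and 52.9 CPM in CTL (-1.03 ± 0.25). Nfe2l2, the oxidative stress factor NRF2, rose (0.95 ± 0.23) as the only call among 27 genes of its list (3.7%). The cAMP list held 0 calls without PCI replicate 1 or CTL replicate 1 and 1 without PCI replicate 2 or CTL replicate 3, and the gap junction list 1 without PCI replicate 1 or 2 or CTL replicate 1 or 3. The glycolysis list held 0 calls without PCI replicate 1 or 2 or CTL replicate 1 or 3, and 1 without CTL replicate 2. Prkar2b lost its call without PCI replicate 1, CTL replicate 1 or CTL replicate 3 (adjusted p = 0.114, 0.101 or 0.084) and with no filter on low counts (adjusted p = 0.0852). Pfkfb3 lost its call without PCI replicate 1, PCI replicate 2, CTL replicate 1 or CTL replicate 3 (adjusted p = 0.151, 0.0997, 0.0609 or 0.0976). Nfe2l2 lost its call without PCI replicate 1, CTL replicate 1, CTL replicate 2 or CTL replicate 3 (adjusted p = 0.117, 0.0998, 0.0732 or 0.0698).

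Housekeeping and cell-cycle lists held no call in the fit over all libraries. Of 29 genes of DNA replication 0 were called (3 at an unadjusted p under 0.05, 0 by DESeq2) and of 29 of mitosis 0 (0 unadjusted, 0 by DESeq2). Their medians were 0.00 and -0.01. Of 31 nuclear and 10 mitochondrial genes of the respiratory chain 0 were called (0 and 0 unadjusted, 0 and 0 by DESeq2), and of 42 cytoplasmic ribosomal proteins 0 (2 unadjusted, 1 lower by DESeq2). Even so, 39 of the 42 ribosomal genes lay below 0, with a median of -0.18, against 9585 of all 18192 genes tested. Amino acid transporters (25 genes, 7 unadjusted, 1 higher by DESeq2), NF-kB and chemokine genes (20, 3 and 0), the Notch pathway (16, 6 and 1 lower) and the BCL2 family (14, 2 and 2 lower, with 1 lower under the replicate block) had 0 calls as well. The edgeR fit to the 6 libraries of 8 h alone called 1 gene of DNA replication, 1 ribosomal protein gene, 2 amino acid transporters, 2 Notch genes and 1 BCL2 gene, and 0 of the mitosis, respiratory chain and NF-kB lists. In counts simulated at this depth and spread the test recovered 87% of 4-fold and 41% of 2-fold changes, so smaller differences may go unseen. The changes were set only in genes above 1 CPM in CTL, so recovery in lower genes was not measured.

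Markers of the cell types a COC sample can hold were read for every library. The 34 measured oocyte markers summed to 7827, 9568 and 11510 CPM in PCI and 9908, 8318 and 14024 CPM in CTL, and 0 were called by edgeR or DESeq2 (4 at an unadjusted p under 0.05), with a median of -0.28. Of the 34, 28 lay below 0 and 6 above, against 9585 and 8597 of all 18192 genes tested. Without CTL replicate 2 edgeR called 1 oocyte marker. The 14 cumulus cell genes summed to 6095, 6134 and 5632 CPM in PCI and 6645, 7483 and 5132 CPM in CTL, with 2 higher, Nr5a2 among them, and 1 lower (Npr2). Of 11 genes typical of the granulosa cells at the follicle wall (mural granulosa) 3 rose (Cyp11a1, Bmp2 and Prlr) and 0 fell, and they summed to 3943 to 4175 CPM in PCI and 2342 to 3779 CPM in CTL. Bmp2 lost its call without PCI replicate 1, CTL replicate 1 or CTL replicate 3 (adjusted p = 0.106, 0.087 or 0.0662). Prlr lost its call without PCI replicate 1, PCI replicate 2, CTL replicate 1, CTL replicate 2 or CTL replicate 3 (adjusted p = 0.145, 0.0572, 0.0848, 0.0741 or 0.0685). Of the 8 theca markers, 6 were measured and 1 was called (Aldh1a1, higher); their sum, nearly all Hsd3b1, was 3594 to 9292 CPM in PCI and 1123 to 3340 CPM in CTL. The defining theca markers Cyp17a1 and Insl3 had 0 and 0 counts in PCI and 2 and 0 counts in CTL. The part of theca cells in the Cyp11a1, Hsd3b1 and Aldh1a1 values was not tested. The mural list held 1 call without PCI replicate 1, CTL replicate 1 or CTL replicate 3.

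Among other cells, 2 of 7 measured surface epithelium markers fell (Krt8 and Krt18). The sum of the 7, mostly Krt8 and Krt18, was 292 to 434 CPM in PCI and 1047 to 1429 CPM in CTL. Krt7 and Upk1b, further markers of surface epithelium, had 0 and 1 counts over the PCI libraries and 5 and 8 over the CTL libraries. What part surface epithelium cells had in the keratin values was not tested. Of 7 stroma markers 1 fell (Pdgfra), with sums of 22.4 to 32.8 CPM in PCI and 27.9 to 47.4 CPM in CTL. Pdgfra lost its call without PCI replicate 2, PCI replicate 3, CTL replicate 1 or CTL replicate 2 (adjusted p = 0.0808, 0.0792, 0.0713 or 0.0615). Endothelium markers (7 measured, 0 called by edgeR or DESeq2, 0 unadjusted) summed to 41.5 to 73.8 CPM in PCI and 41.3 to 63.7 CPM in CTL, and leukocyte markers (8, 0 and 0) to 9.9 to 25.6 CPM in PCI and 6.35 to 10.8 CPM in CTL. Among markers too low to be tested, Emcn of endothelium had 35 counts over the PCI libraries and 3 over the CTL libraries, and Tyrobp of leukocytes 15 and 0. Of the red blood cell genes, 4 haemoglobin genes had 0 counts in all 6 libraries.

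The 8 h effect was set beside those at 4 and 12 h, which use other libraries in both arms. Among the 354 genes that rose at 8 h, 78.8% had the same sign at 4 h and 91.5% at 12 h; 1 was called at 4 h (of 2 genes called higher there, 0.011% of those tested) and 66 at 12 h (of 107, 0.588%). Those 66 are 18.6% of the 8 h rises and 61.7% of the 12 h rises. Among the 313 that fell, 88.8% had the same sign at 4 h and 95.8% at 12 h, with 16 of the 22 falls at 4 h (0.121%) and 125 of the 254 at 12 h (1.4%). These are 5.11% and 39.9% of the 8 h falls, and 72.7% and 49.2% of the falls at 4 and 12 h. Leaving out PCI replicate 1 or 3 or CTL replicate 1 or 3 of 4 h gave 3 to 5 calls at 4 h in place of 24 and leaving out PCI replicate 2 gave 54, while leaving out any 1 library of 12 h gave 109 to 235 in place of 361 (1.98% of genes tested). No 8 h call was called in the opposite direction at either time. The median log2 fold change of the risers was 0.25, 1.41 and 0.63 at 4, 8 and 12 h, and that of the fallers -0.55, -1.47 and -0.97. Over all genes tested the median was 0.04 at 4 h and 0.03 at 12 h. The share of all genes with the same sign at 2 times was not computed, so the shares above have no background. Since the genes were chosen for their 8 h values, the larger medians at 8 h are a description only.

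Genes differed in the times at which the inhibitor effect was called, which by itself does not show that the effect differed between times. The median standard deviation of log2 CPM was 0.438 among the PCI libraries of 4 h and 0.267 among those of 8 h. Smad7 (log2 fold changes -1.46, -1.42 and -0.74), Id4 (-2.12, -2.01 and -1.78), Itga5 (-1.07, -1.33 and -0.88) and Gdnf (-1.34, -1.46 and -1.07) were called lower at all 3 times, given here as 4, 8 and 12 h. Has2 (-0.83, -2.52 and -2.25), Ptx3 (-0.56, -1.93 and -2.81), Krt8 (-0.39, -1.72 and -1.63) and Ano1 (-0.22, -2.30 and -2.96) were called lower at 8 and 12 h but not at 4 h. Cyp11a1 (-1.10, 4.12 and 3.11), Adm (-0.31, 3.62 and 1.89) and Prss35 (0.00, 4.97 and 2.66) were called higher at 8 and 12 h. Adamts9 (0.90, 3.61 and 1.94), Abca1 (-0.13, 2.22 and 0.78), Fosl2 (0.37, 1.58 and 0.80), Lif (-1.91, -2.97 and -1.18) and Fgf2 (-1.52, -3.01 and -0.97) were called at 8 h but not at 4 or 12 h. Of the genes of this paragraph, Adm and Prss35 were called in a test of the difference between 8 h and 4 h, and no gene was in that between 8 h and 12 h.

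**Figure D4:**
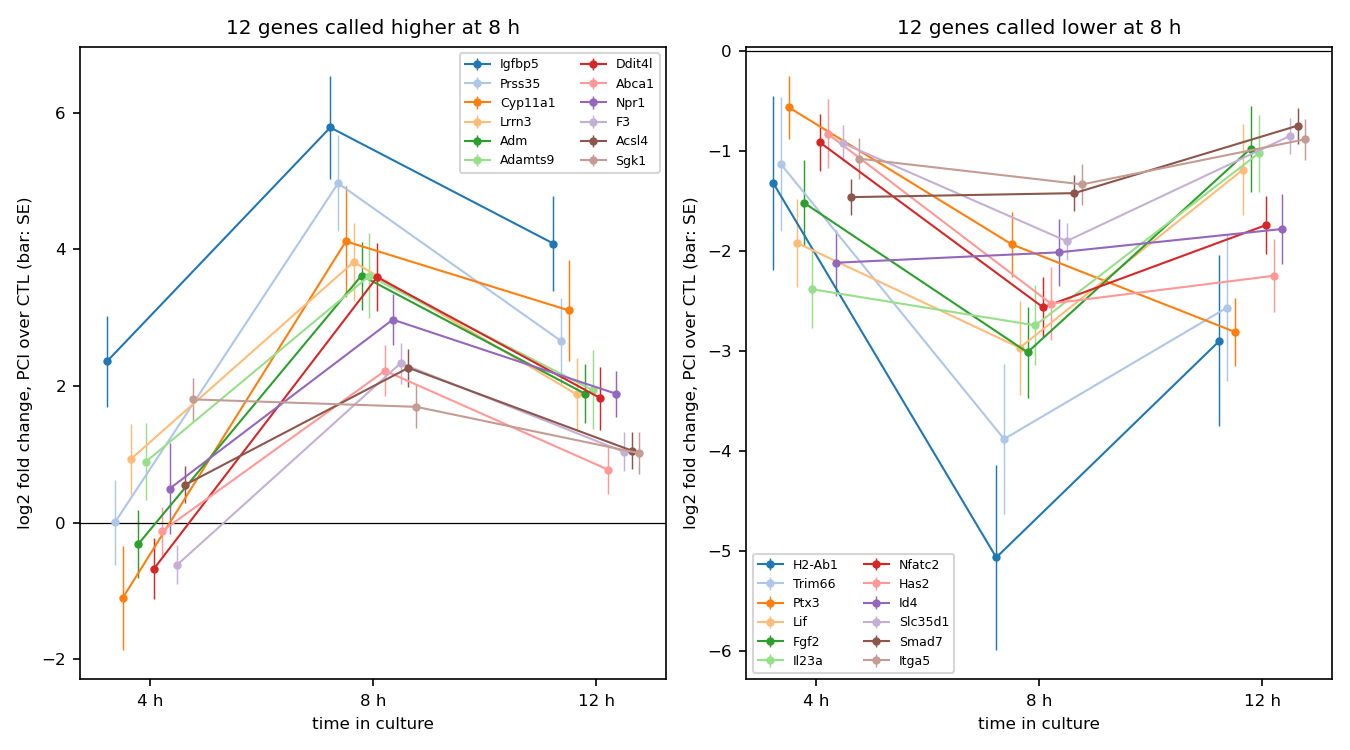
Log2 fold change, PCI over CTL, at 4, 8 and 12 h for 12 genes that rose (left) and 12 genes that fell (right) at 8 h, with bars of 1 SE on either side. Apart from Sgk1 the risers are highest at 8 h, whereas Smad7, Id4 and Itga5 are about as low at 4 h as at 8 h.

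A test of the change itself called 13 genes between the 4 h and the 8 h effect (0.0715% of those tested, 12 higher at 8 h, 0.066%, and 1 lower, 0.0055%). F3 had the smallest p, with an effect at 8 h that was 2.95 ± 0.42 above that at 4 h on the log2 scale (adjusted p = 0.0173), with Ddit4l (4.27 ± 0.66), Sgms2 (1.89 ± 0.30), Adm (3.93 ± 0.70), Dync1i1 (4.04 ± 0.71) and Prss35 (4.97 ± 0.90) among the others at adjusted p of 0.0305 to 0.0491. Lgalsl, a galectin-related gene, went the other way (-1.37 ± 0.25). DESeq2 called 112 such genes and the fit with the replicate block 8. The count was 0 without PCI 4 h replicate 1, PCI 8 h replicate 1 or 2, or CTL 8 h replicate 3. It was 1 to 8 without PCI 4 h replicate 2 or 3, any 1 CTL 4 h library or CTL 8 h replicate 1, and 45 without PCI 8 h replicate 3. Between 8 h and 12 h edgeR called 0 (1133 at an unadjusted p under 0.05) and DESeq2 28.

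The direction at 8 h was also read against the course of the control COCs, from CTL at 12 h and CTL at 4 h, libraries that the 8 h comparison does not use; 44.3% of genes were called in it. Of the 3958 genes that rose from 4 to 12 h in control COCs, 5.08% rose and 1.54% fell with the inhibitor at 8 h, with a median of 0.13. Of the 4095 genes that fell over that course, 0.684% rose and 3.47% fell, with a median of -0.27. Of the 10139 genes called in neither direction, 1.23% rose and 1.08% fell, with a median of -0.01. Genes rising in the course made up 56.8% of the 8 h rises and 19.5% of the 8 h falls, and genes falling in it 7.91% and 45.4%. Idh1, Akr1cl, Cyp11a1 and Igfbp5 rose in the course (log2 fold changes 3.13, 2.83, 2.37 and 3.39) and with the inhibitor. Has2, Il23a and Lif fell in both (-3.63, -3.02 and -2.06 in the course). Lox, Krt8 and Krt18 went against the course, rising in it by 1.47, 1.22 and 2.26 and falling with the inhibitor, while Abca1 and Aldh1a1 fell in it (-1.28 and -2.85) and rose with the inhibitor.

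**Figure D5:**
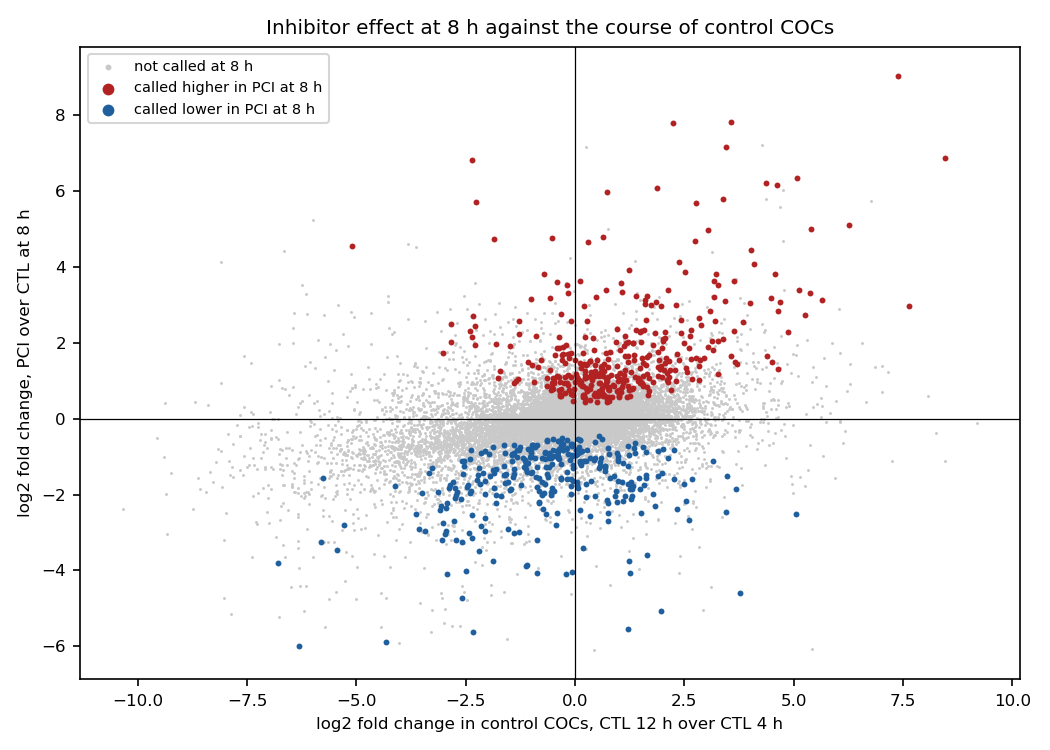
Log2 fold change of each gene between PCI and CTL at 8 h (vertical axis) against that between CTL at 12 h and CTL at 4 h (horizontal axis), with genes called higher at 8 h in red, called lower in blue and not called in grey. Red points lie mostly to the right of 0 and blue points more often to the left, with exceptions in both.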

How the data were processed

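RNA was sequenced from mouse COCs as stranded, poly(A)-selected libraries. The authors deposited raw counts of reads per gene; per the submitters' processing notes cutadapt, STAR, HTSeq and mm39 were used, while for versions, annotation release and strand setting nothing is given in the sources used here. The deposited counts are whole numbers and were not normalized, and all value columns were matched to libraries by name. Depth over the 21 libraries was 19458618 to 37491828 counts, and replicates differed beyond sampling noise. In R 4.3.3 with edgeR 4.0.16, filterByExpr left 18192 of 56980 genes, which were scaled by TMM and fitted with a robust quasi-likelihood model of 7 group means (14 residual degrees of freedom). P-values are two-sided and adjusted by Benjamini-Hochberg, and they measure the spread between libraries that the labels call biological replicates. CPM and log2 fold changes were computed here, SE was taken as |log2 fold change| divided by √F, and common biological variation was 29.5%. The method was tested on simulated data.

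The genes and lists were chosen with earlier results of these data known. Named genes were taken from the 15 largest rises and 15 largest falls at a mean of at least 5 CPM without overlap and the 10 smallest p-values. Others came from the 6 largest gains and losses in CPM among called genes, a panel of expansion and convertase genes, and called members of each list. Among genes called at 8 h, the 6 smallest p-values in each direction for the difference from 4 h and from 12 h were added. The theca, epithelium and other marker lists were read as summed CPM. Same-numbered PCI and CTL libraries of 8 h deviated together weakly (r = 0.167, 0.108 and 0.267). PCI replicate 1 with CTL replicate 2 gave 0.130, and the other pairs of unlike number gave -0.295 to 0.0255. At 4 h same-numbered pairs gave 0.325, 0.524 and 0.143, and pairs of unlike number -0.414 to 0.238. At 12 h same-numbered pairs gave 0.227, 0.0424 and 0.170, and pairs of unlike number -0.182 to -0.0159. The numbers were read as a possible pairing from these values, as the labels do not say what a number shares. The main fit did not use them, so its p-values are unpaired. Alternatives were a replicate block, other scalings and filters, the 6 libraries alone, each library left out, and DESeq2 1.42.0. Promoters are RefSeq sequences on GRCm38.p6, and gene coordinates are those deposited with the counts. Genes with close copies (the Akr1c family, Adh1 and Adh7, Trbc1 and Trbc2, H2-Ab1) may share reads. Counting intervals cover counting error only. A few named genes are not reported here.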

Additional observations from a re-analysis of the deposited data

Results flagged for a closer look

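The effect of the inhibitor at 8 h differed from that at 4 h for 13 genes by a test of the difference itself (edgeR's quasi-likelihood test, adjusted over all genes). Among them the differences in log2 fold change, 8 h minus 4 h, were 2.95 for F3, 4.27 for Ddit4l, 1.89 for Sgms2, 3.93 for Adm, 4.04 for Dync1i1, 4.97 for Prss35 and 9.18 for Cemip, all of them genes that rose at 8 h. Lgalsl, which fell at 8 h, had a difference of -1.37. Myc (2.04), Kansl1 (1.36) and Plekhm1 (1.31) were called lower at 4 h and not called at 8 h, and Mlf1 differed by 2.31; these 4 are named after their values were seen. The 8 h effect of Myc was 0.73 (adjusted p = 0.109), against -1.32 at 4 h (adjusted p = 0.0275). The fitted value for Cemip rests on few counts and is no measure of size.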

How the results depend on the processing

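At 8 h the 667 calls (354 higher, 313 lower) were 252 to 713 (127 to 398 higher, 112 to 315 lower) with 1 library left out, and 1084 (550 and 534) with DESeq2. Other scalings, filters and the 6 libraries alone gave 596 to 845. The replicate block gave 701 (351 and 350) and kept 630 of the 667; beside the results already given with it, it changed no other call among the named genes. Between the 8 h and 4 h effects the 13 calls were 7 with scaling by library size alone, 27 with no filter, 8 with the block, 112 with DESeq2 and 0 to 45 with 1 library left out. Between 8 h and 12 h the count of 0 was 7 with no filter and 28 with DESeq2. The 24 calls at 4 h were 46 with no filter, 114 with DESeq2 and 3 to 54 with 1 library left out, and the 361 at 12 h were 683 with DESeq2 and 109 to 235. DESeq2 called 7 ovulatory, 7 immediate-early, 4 matricellular, 4 basement membrane and 5 lysosomal genes in place of 4, 4, 2, 1 and 2, and 2 to 4 in the prostaglandin, integrin, cholesterol, Hedgehog, metalloprotease, interferon and NRF2 lists in place of 1 each. The 6 libraries alone gave 3 steroid, 5 EGF, 5 heparan sulfate, 5 matricellular, 4 lysosomal and 5 glucocorticoid genes in place of 6, 2, 2, 2, 2 and 3, 2 to 4 in the cholesterol, integrin, Hedgehog, ER folding, basement membrane, NRF2, prostaglandin, ERK, metalloprotease and MYC lists in place of 1 each, and 0 in place of 1 in the interferon list. The cause was not tested. Of 125 named genes called at 8 h, 71 were called with each of the 6 libraries left out in turn, 63 in all 13 settings, and none changed sign. Genes near 0 did: Ptgs2 ran from -0.12 to 0.14 with 1 library left out. Gdf9 was at -0.023 with library size alone, -0.016 with no filter and -0.0023 with the 6 libraries, and ran from -0.11 to 0.23 with 1 left out. Bmp15 was at -0.033, -0.024 and -0.0073 in those settings, -0.0037 with the block, and ran from -0.11 to 0.23. At this depth and spread the test recovered 41% of simulated 2-fold changes, set only in genes above 1 CPM in CTL.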

Other observations

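Further genes were read after their values were seen, so they get no count as support. Of 24 measured genes of chondroitin sulfate synthesis, 6 fell and 1 rose (edgeR, adjusted p under 0.05), with a median log2 fold change of 0.01. Beside Slc35d1 and Slc26a2, Chst15, a sulfotransferase of such chains, was at 30.5, 23.6 and 33.6 CPM in PCI and 103, 101 and 62.7 CPM in CTL (-1.61 ± 0.30, adjusted p = 0.0043), and kept its call in every setting run. Csgalnact1, which starts the chain, fell by 1.84 ± 0.36 and lost its call without PCI replicate 1 (adjusted p = 0.0515), while its relative Csgalnact2 rose by 1.00 ± 0.23 and lost its call without PCI replicate 1 (adjusted p = 0.139), CTL replicate 1 or CTL replicate 3. Xylt1 (-0.95 ± 0.21) lost its call without PCI replicate 2 or CTL replicate 1 (adjusted p up to 0.0944). Ust (-0.86 ± 0.24) lost its call without any 1 library other than PCI replicate 2 and in the fit to the 6 libraries of 8 h alone (adjusted p up to 0.265). Thus 3 of the 7 calls were lost without PCI replicate 1, and 3 without CTL replicate 1.

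Of 17 keratin genes 4 fell and 0 rose, with a median of -0.74. Krt76 was at 7.96, 6.78 and 11.5 CPM in PCI and 59.8, 40.3 and 35.7 CPM in CTL (-2.37 ± 0.37, adjusted p = 0.00113). Krt79 was at 19.3, 13.5 and 47.1 CPM in PCI and 190, 70.1 and 189 CPM in CTL, and lost its call in a fit to the 6 libraries of 8 h alone (adjusted p = 0.128).

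Of 3 measured constant regions of the T cell receptor 2 fell and 0 rose. Trbc2, a constant region of the T cell receptor beta chain, was at 14.6, 21.2 and 26 CPM in PCI and 66.7, 61.5 and 65.8 CPM in CTL (-1.65 ± 0.30, adjusted p = 0.00392). Trbc1 fell by 4.09 ± 0.85 and lost its call without PCI replicate 1, PCI replicate 2 or CTL replicate 1 (adjusted p = 0.0684, 0.0665 or 0.0731). Trac was not called (-0.95 ± 0.55, adjusted p = 0.488). Cd3e, which T cells express, had 9 counts over the PCI libraries and 1 over the CTL libraries. What part other cells have in these values was not tested.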
